A study of Mus musculus with 4 samples.

Results

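Genomic imprinting restricts the expression of a gene to 1 parental allele. The choice of allele is set in the germline by DNA methylation of a control region, and it is kept in the embryo and in embryonic stem cells (ESCs) by factors such as ZFP57, which binds the methylated hexamer TGCCGC. Imprinted genes are known for roles in fetal growth, in the brain and in metabolism, and in cultured ESCs their allelic state is known to drift. Here 10 imprinted genes were examined in mouse ESCs with and without SNF2L, a nucleosome remodeling ATPase. They were chosen by name, as genes of domains other than distal chromosome 7, Mest, Peg10 and Dlk1-Meg3. Earlier results of these data were known when the choice was made. All 10 were among the 24594 genes of the table, and all 10 passed the filter on low counts, which kept 13840 genes. The genes are Peg3, Snrpn, Ndn, Plagl1, Nnat, Impact and Zrsr1, which are expressed from the paternal allele, Igf2r, which is expressed from the maternal allele, and Grb10 and Gnas, whose expressed allele depends on tissue and promoter.

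The series consists of 4 poly(A) RNA libraries, 2 of wild-type (WT) ESCs and 2 of Snf2l knockout ESCs. Both are of the 129S6/SvEvTac background and received no treatment, and the series design gives them as 1 batch. No label says whether libraries of the same number share a culture or a day. The knockout is a Cas9-edited line, for which the methods describe 1 selected clone, so genotype and clone cannot be told apart. The methods call replicates independent, but neither they nor the labels say whether these are separate cultures, so p-values measure the spread between these libraries, which may be technical. The background is inbred and the counts add both alleles, so the measurements below are of total RNA and not of the allele in use.

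The libraries held between 13771642 and 15608803 counts. Smarca1, the gene of SNF2L, kept 5.06% of its WT level in the knockout libraries, with counts of 620 and 626 in WT against 37 and 31 after the knockout. All 7 markers of ESCs were detected, with summed levels between 3704 and 3892 CPM (counts relative to the TMM-scaled library size) in all 4 libraries, and of these Klf4 was higher at 0.34 (adjusted p = 0.0359 by edgeR) and Zfp42, on chromosome 8, lower at -0.60 (adjusted p = 3.80e-04 by edgeR). Of all genes tested, 4% were higher and 5.21% lower at an adjusted p-value under 0.05 by edgeR. Markers of other cells moved with genotype. The 7 fibroblast markers summed to between 12.5 and 15.4 CPM in WT, against between 28.4 and 28.5 CPM in the knockout, with 2 of 6 tested being higher at an adjusted p-value under 0.05 and Lum at 0 counts throughout. The 6 endoderm markers summed to between 16.1 and 17.0 CPM in WT, against between 27.0 and 27.3 CPM in the knockout, with 4 of 6 higher. The 6 neural markers summed to between 231 and 249 CPM in WT, against between 159 and 165 CPM in the knockout, with 4 of 6 lower and 1 higher. Of the 4 lower ones Tubb3, which made up most of the sum, and Sox1 lie on chromosome 8, where the median log2 fold change was -0.51, and Pax6 and Nes lie elsewhere. The part of such cells in the values below was not tested, and in bulk RNA fewer cells of a type and less RNA per cell cannot be told apart.

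None of the imprinted genes passed the test for a change in total RNA. By edgeR's quasi-likelihood test, with Benjamini-Hochberg adjustment over all genes tested, 0 of 10 had an adjusted p-value under 0.05, against 9.21% of all genes tested. Without chromosomes 8 and Y, where none of the 10 lies, it was again 0 of 10, against 579 of 13073 genes tested. The median log2 fold change was -0.51 over the 753 tested genes of chromosome 8 and -4.57 over the 6 of chromosome Y. The cause of these shifts was not tested. At the threshold of the study for a differentially expressed gene (DEG), a change of over 2-fold with an adjusted p-value under 0.01, the count was also 0 of 10, against 0.99% of all genes. An unadjusted p-value under 0.05 was reached by 3 of the 10, Nnat, Gnas and Impact, against 22.2% of all genes. DESeq2 called 0 of 10 as well, with 1 at an unadjusted p-value under 0.05. With the replicate number added to the fit, Impact and Gnas passed, which is described in the last section. Log2 fold changes of the knockout over WT lay between -0.28 and 0.32, with a median of 0.021 beside a median of 0.00 over all genes, and 6 of 10 were positive. The 95% interval of the log2 fold change stayed between -1 and 1 for all 10, as it did for 86.2% of all genes tested, so a change of 2-fold in total RNA lies outside the interval of each gene. In 4 of the 10 the libraries of the genotypes did not overlap, which was the case for 50.5% of all genes.

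**Figure D1:**
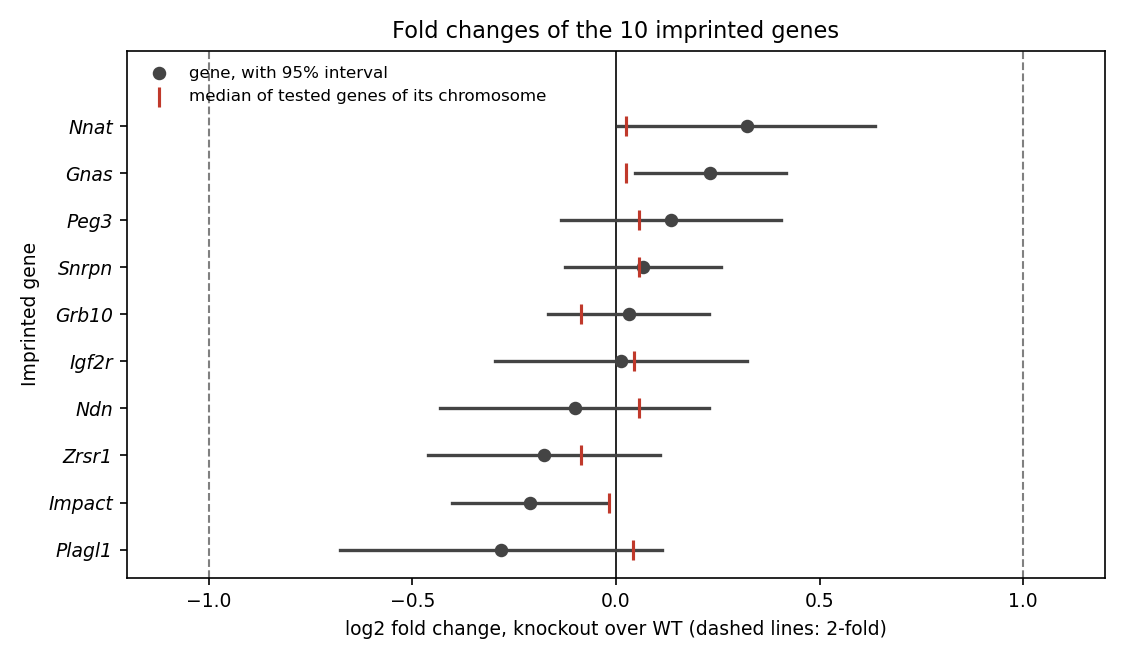
Log2 fold change of each of the 10 imprinted genes in knockout over WT libraries (x axis), with the 95% interval of the fit as a line, 2 libraries per genotype, and the median of all tested genes of the same chromosome as a red mark. All 10 intervals lie inside the dashed lines at -1 and 1, and the estimates run from -0.28 for Plagl1 to 0.32 for Nnat.

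Regulatory sequence at these genes was read from the RefSeq table of promoters (GRCm38.p6, the assembly that mm10 represents), which gives 300 bases around annotated starts. It held windows for 9 of the 10 genes, 16 windows in all, and Impact had none. The hexamer TGCCGC, searched on both strands as TGCCGC or GCGGCA, was found in 4 windows, of 4 genes. It was found in 11.6% of all 32851 windows and in 27.8% of the 8701 windows with at least 20 CpG. These 4 stretches are shown because the hexamer is the known target of ZFP57 when methylated, with the hexamer in capitals and 5′ to 3′ on the strand of the gene. The Plagl1 match starts 90 bases before the annotated start and the Snrpn match 2 bases before it, whereas the matches of Nnat and Grb10 start 27 and 24 bases after it. All 4 read GCGGCA on the strand of the gene. Whether these stretches lie in a methylated control region, or are bound by ZFP57, was not tested.
Plagl1, chr10:13090730-13090759, plus strand: ctggcgtgttgcGCGGCAaagcccacggca
Snrpn, chr7:60005184-60005213, minus strand: gacccctgcattGCGGCAaaaatgtgcgca
Nnat, chr2:157560093-157560122, plus strand: gccaccggggctGCGGCAttgcgcccagca
Grb10, chr11:12037379-12037408, minus strand: gggtgcggggagGCGGCAggaagggaaggg
The other genes searched had no match in their windows, which says only that these letters are not there. The windows differed in CpG content, from 2 CpG at the most distal Snrpn start and 7 at the Snrpn start shown to 26 for Plagl1, 34 for Igf2r and 45 for the Grb10 start shown, beside a median of 7 over all windows. The 4 genes with a match had log2 fold changes of -0.28 (Plagl1), 0.03 (Grb10), 0.07 (Snrpn) and 0.32 (Nnat), which overlap those of the genes without one, at -0.18 (Zrsr1), -0.10 (Ndn), 0.01 (Igf2r), 0.14 (Peg3) and 0.23 (Gnas).

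Levels of the genes were compared per kb of the gene length in the table, as scaled CPM per kb. In WT, Snrpn stood highest at 127 ± 1.17, followed by Grb10 at 40.5 ± 2.29, Impact at 30.4 ± 0.868, Gnas at 14.2 ± 0.301 and Igf2r at 11.1 ± 2.54 (SD, n = 2). Lower levels were found for Peg3 at 5.96 ± 0.966, Nnat at 4.599 ± 0.198, Zrsr1 at 4.10 ± 0.320, Ndn at 3.06 ± 0.524 and Plagl1 at 0.846 ± 0.158 (SD, n = 2). Each WT library of a gene lay above both WT libraries of the gene next in this order. The order was the same in the knockout, where only Peg3 and Nnat, neighbours in the order, overlapped. Snrpn exceeded Plagl1 149.8-fold in WT and 192-fold in the knockout, and without the correction for length these ratios were 55.6 and 69.4. For Ndn the table uses a length of 3694 bp, which is more than the span RefSeq gives the gene, so its level per kb would be higher on the RefSeq length, and its place in the order, in either genotype, holds only for the length in the table.

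**Figure D2:**
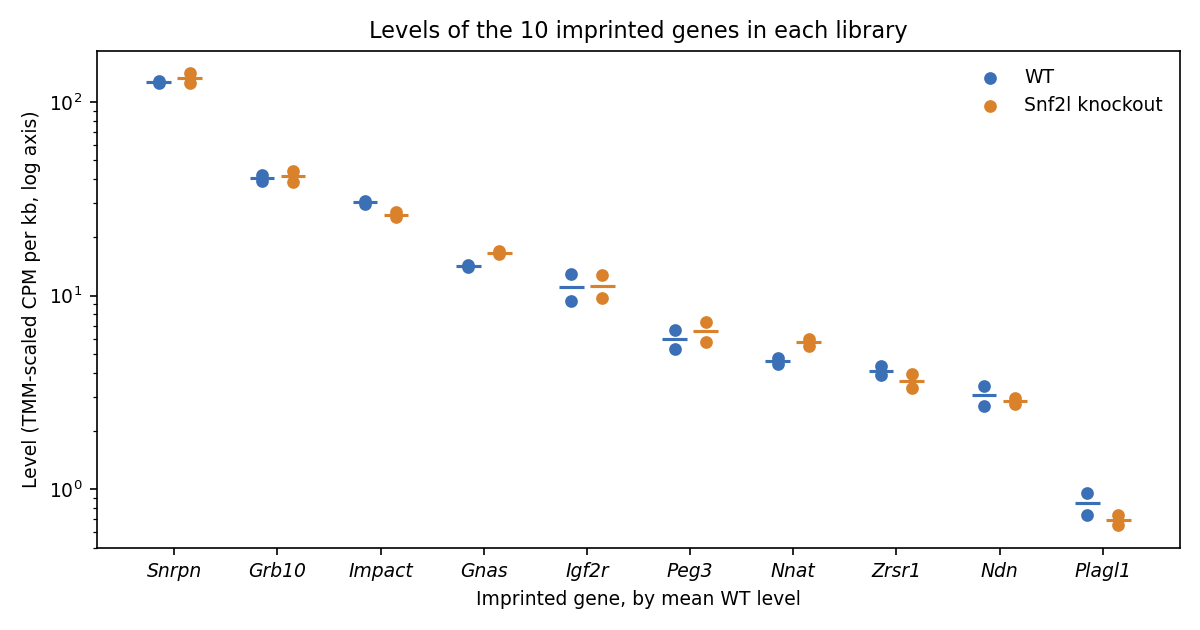
Level of each imprinted gene in each library (points, scaled CPM per kb, log axis) and the mean of each genotype (short lines), ordered by the WT mean. Snrpn is at 127 and Plagl1 at 0.846 CPM per kb in WT, and on these lengths the order of the means is the same in both genotypes.

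Peg3 (Entrez gene 18616, chromosome 7, 6703892 to 6730462) codes for a zinc finger protein. Its counts were 1232 and 1102 in WT, against 1560 and 1210 without SNF2L. The libraries of the genotypes overlapped, at 81.2 ± 13.2 and 89.1 ± 14.6 CPM (n = 2 each, SD). Its log2 fold change stood at 0.14 (SE 0.126, 95% interval -0.13 to 0.40, edgeR adjusted p = 0.591). Usp29, a paternally expressed gene that starts next to Peg3 and is transcribed away from it, had 96 and 86 counts in WT and 83 and 64 in the knockout. At -0.41 (SE 0.194) it did not pass (edgeR adjusted p = 0.228). The remaining genes tested in this domain, Zim1 and Zim3, were at -0.22 (SE 0.328) and -0.69 (SE 0.262), and also did not pass (edgeR adjusted p = 0.760 and 0.124). Zim2 had at most 1 count in any library. All 3 tested partners of Peg3 had both knockout libraries below both WT libraries, a separation that 25.3% of all genes had in this direction. Zim1 had only 18 and 20 counts in WT and 17 and 18 in the knockout. The spans of Usp29 and Zim3 overlap, so their rows may share reads.

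Snrpn (Entrez gene 20646, chromosome 7, 59982495 to 60450177) codes for SmN, a core protein of spliceosomal ribonucleoproteins. It had 3558 and 4059 counts in WT and 4072 and 4480 in the knockout. The genotypes overlapped at 263 ± 2.44 and 276 ± 22.6 CPM (n = 2 each, SD), which gave 0.07 on the log2 scale (SE 0.0892, 95% interval -0.12 to 0.26, edgeR adjusted p = 0.731). Snurf, the upstream reading frame of the same transcript, is listed with 3558, 4062, 4073 and 4484 counts. The rows for Snurf and Snrpn thus hold nearly the same reads and are not separate measurements. Snrpb, the paralog on chromosome 2 that codes for SmB, was at -0.03 (SE 0.0957, 95% interval -0.23 to 0.18, edgeR adjusted p = 0.905). Of the 50-base words in the GENCODE transcripts of Snrpn, 26.5% also occur in transcripts of other genes, most of them of Gm38393 and Snurf, which overlap its exons, and none of Snrpb.

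Ndn (Entrez gene 17984, chromosome 7, 62348277 to 62349928) codes for necdin, a growth suppressor of neurons, and lies in the same domain as Snrpn. It had 135 and 194 counts in WT and 172 and 156 in the knockout. Both knockout libraries lay between the WT libraries, at 11.3 ± 1.94 CPM in WT, against 10.6 ± 0.574 CPM in the knockout (n = 2 each, SD). Fitted as knockout over WT, the log2 fold change was -0.10 (SE 0.154, 95% interval -0.43 to 0.23, edgeR adjusted p = 0.764). Magel2, the MAGE family gene next to it, had 45 and 50 counts in WT and 58 and 39 in the knockout (edgeR adjusted p = 0.9003). Snhg14, the long host transcript of small nucleolar RNAs that runs on from Snrpn towards Ube3a, was at -0.02 (SE 0.0926, adjusted p = 0.915 by edgeR).

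The genes called in this domain lay at its edges. Peg12, a paternally expressed retrogene beyond Ndn, rose from 26 and 36 counts in WT to 50 and 86 in the knockout. On the log2 scale this was 1.03 (SE 0.282, adjusted p = 0.0322 by edgeR), a 2.04-fold rise with both knockout libraries above both WT libraries. This call was not made with a filter of at least 1 count or without chromosomes 8 and Y, and it rested on single libraries. It was 0.57 without knockout replicate 2 (edgeR adjusted p = 0.313) and 0.90 without WT replicate 1 (edgeR adjusted p = 0.0559), and DESeq2 gave an adjusted p of 0.121. Mkrn3, which lies between Magel2 and Peg12 and codes for a ring finger protein, had 80 and 72 counts in WT and 115 and 113 in the knockout. At 0.48 (SE 0.175) it did not pass (edgeR adjusted p = 0.110). Otud7a, a tested gene beyond Peg12 that is not listed in this domain, rose from 15 and 16 counts to 50 and 35. At 1.35 (SE 0.304) it passed (edgeR adjusted p = 0.0106). Chrna7, the tested gene that starts between Peg12 and Otud7a, was at -0.11 (SE 0.207) and did not pass (edgeR adjusted p = 0.816). At the other end, Atp10a, a phospholipid transporter gene, fell from 483 and 577 counts to 363 and 326. Its log2 fold change of -0.72 (SE 0.111, adjusted p = 8.13e-04 by edgeR) kept an adjusted p-value of at most 0.0031 under every alternative computed. Ube3a, the ubiquitin ligase gene next to it, had 2753 and 2490 counts in WT and 2443 and 1851 in the knockout, and at -0.40 (SE 0.125) it did not pass (edgeR adjusted p = 0.0602).

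Plagl1 (Entrez gene 22634, chromosome 10, 13090832 to 13131694), also called Zac1, codes for a zinc finger transcription factor that restrains the cell cycle. It was the lowest of the 10 genes, with 102 and 88 counts in WT and 80 and 88 in the knockout. Scaled levels were 7.49 and 5.74 CPM in WT, against 5.10 and 5.73 CPM in the knockout, so the genotypes did not overlap but nearly touched. The log2 fold change was -0.28 (SE 0.185, 95% interval -0.68 to 0.11, edgeR adjusted p = 0.411), and its interval was the widest of the 10. With 1 library left out it lay between -0.47, without WT replicate 2, and -0.085, without WT replicate 1. The related genes Plag1 and Plagl2 were at -0.13 (SE 0.172) and -0.05 (SE 0.116), with edgeR adjusted p = 0.721 and 0.863. Phactr2, a neighbour of Plagl1, had between 27 and 32 counts in every library and was at -0.13 (SE 0.267, adjusted p = 0.837 by edgeR).

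Nnat (Entrez gene 18111, chromosome 2, 157560078 to 157562525) codes for neuronatin, a small membrane protein of the endoplasmic reticulum. It had the largest positive value of the 10, with 118 and 125 counts in WT and 158 and 168 in the knockout. Both knockout libraries were above both WT libraries, at 10.5 ± 0.609 against 8.41 ± 0.363 CPM (n = 2 each, SD). The log2 fold change of 0.32 (SE 0.148, 95% interval 0.0053 to 0.64) did not pass the adjustment over all genes (edgeR adjusted p = 0.217). Nnat lies in an intron of Blcap, on the opposite strand. Blcap had 396 and 394 counts in WT and 489 and 557 in the knockout, and at 0.30 (SE 0.118) it also did not pass (edgeR adjusted p = 0.144). The exons of Nnat and Blcap share 0 bases in the GENCODE annotation, so no exonic read belongs to both. Src, the tyrosine kinase gene that is the next tested one beyond Blcap, rose from 263 and 267 counts to 412 and 428, a log2 fold change of 0.56 (SE 0.118, adjusted p = 7.04e-03 by edgeR). Without WT replicate 2 the value for Src was 0.48 and its edgeR adjusted p was 0.0818. The median of the 1090 tested genes of chromosome 2 was 0.025.

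Impact (Entrez gene 16210, chromosome 18, 12954690 to 12992950) codes for an inhibitor of the activation of the kinase GCN2 by GCN1. It had 1918 and 2074 counts in WT and 1917 and 1786 in the knockout. In scaled levels both knockout libraries were below both WT libraries, at 119 ± 4.22 against 138 ± 3.95 CPM (n = 2 each, SD). The log2 fold change of -0.21 (SE 0.0893, 95% interval -0.40 to -0.02) did not pass the adjustment (edgeR adjusted p = 0.175). The genes of GCN1 and GCN2, Gcn1 and Eif2ak4, were at -0.09 (SE 0.102) and 0.04 (SE 0.104), with edgeR adjusted p = 0.690 and 0.869. Of its neighbours, Osbpl1a, an oxysterol binding protein gene, was at -0.34 (SE 0.0936, adjusted p = 0.0317 by edgeR), with 1137 and 1195 counts in WT and 1010 and 967 in the knockout. This call was lost in 3 of the 4 fits that left out a library, with edgeR adjusted p = 0.367 without WT replicate 1, 0.112 without WT replicate 2 and 0.0654 without knockout replicate 2. It was also lost with DESeq2 (adjusted p = 0.0741). Psma8, a proteasome subunit gene of the testis, was at -0.60 (SE 0.138, adjusted p = 0.0120 by edgeR). Without WT replicate 1 the value for Psma8 was -0.45 (edgeR adjusted p = 0.119).

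Zrsr1 (Entrez gene 22183, chromosome 11, 22972005 to 22976496) is a retrogene related to the splicing factor gene Zrsr2 of chromosome X and lies within Commd1. It had 237 and 298 counts in WT and 278 and 229 in the knockout, which overlapped at 18.4 ± 1.44 and 16.3 ± 1.99 CPM (n = 2 each, SD). Its log2 fold change stood at -0.18 (SE 0.134, 95% interval -0.46 to 0.11, edgeR adjusted p = 0.488). With 1 library left out it lay between -0.31, without knockout replicate 1, and -0.058, without knockout replicate 2. Zrsr2 was at 0.03 (SE 0.0959, adjusted p = 0.914 by edgeR), and the transcripts of Zrsr1 and Zrsr2 share no word of 50 bases. Commd1, on the opposite strand, overlaps 412 bases of the exons of Zrsr1, which is 9.17% of them, so that reads in this stretch cannot be assigned if counting ignored strand. Commd1 had 1125 and 1389 counts in WT and 1064 and 1111 in the knockout, and at -0.31 (SE 0.0959) it did not pass (edgeR adjusted p = 0.0608). The median of the 1163 tested genes of chromosome 11 was -0.09, which is lower than that of all genes.

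Igf2r (Entrez gene 16004, chromosome 17, 12682406 to 12769706) codes for the receptor that carries mannose 6-phosphate tagged enzymes to lysosomes and clears IGF2. It had 1638 and 1331 counts in WT and 1859 and 1386 in the knockout. The genotypes had the same mean of 104 CPM, with wide and overlapping libraries of 120 and 86.8 CPM in WT, against 118 and 90.2 CPM in the knockout. Fitted as knockout over WT, the log2 fold change was 0.01 (SE 0.145, 95% interval -0.30 to 0.32, edgeR adjusted p = 0.978). Airn, the long noncoding RNA whose transcription silences the paternal copy of Igf2r in differentiated cells, had 0 counts in 3 libraries and 1 count in knockout replicate 2. Slc22a2 and Slc22a3, silenced through Airn in the placenta, had 0 counts in every library, so no difference could be detected in them at this depth. M6pr, which codes for the other receptor of mannose 6-phosphate, was at 0.17 (SE 0.0868), and Igf1r, the signalling receptor of IGF2, was at 0.07 (SE 0.131), with edgeR adjusted p = 0.262 and 0.817.

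Grb10 (Entrez gene 14783, chromosome 11, 11930499 to 12037428) codes for an adapter that dampens signalling by the insulin and IGF1 receptors. It had the largest number of counts of the 10, namely 5208 and 5413 in WT against 6299 and 5379 in knockout libraries. The genotypes overlapped at 368 ± 20.8 and 376 ± 36.4 CPM (n = 2 each, SD), which gave 0.03 on the log2 scale (SE 0.0921, 95% interval -0.17 to 0.23, edgeR adjusted p = 0.890). Ddc, the gene of aromatic amino acid decarboxylase on one side of it, had 446 and 608 counts in WT and 411 and 446 in the knockout. At -0.39 (SE 0.120) Ddc did not pass (edgeR adjusted p = 0.0545). Cobl, an actin nucleator gene on the other side, was at 0.19 (SE 0.104, adjusted p = 0.315 by edgeR).

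Gnas (Entrez gene 14683, chromosome 2, 174284320 to 174346744) is 1 row in the table although several promoters produce different transcripts, including those of the stimulatory G protein subunit, of XLαs and of NESP55. The transcripts cannot be told apart in these counts. Gnas had 2153 and 2498 counts in WT and 2913 and 2942 in the knockout, and both knockout libraries were above both WT libraries. Levels were 161 ± 3.41 CPM in WT, against 189 ± 4.08 CPM in the knockout (n = 2 each, SD). The log2 fold change of 0.23 (SE 0.0866, 95% interval 0.05 to 0.42) had the smallest adjusted p-value of the 10 and did not pass (edgeR adjusted p = 0.122). Nespas, the antisense transcript of the domain, listed in RefSeq as Gnasas1, had 18 and 26 counts in WT and 26 and 21 in the knockout (edgeR adjusted p = 0.996). Its exons cover 988 bases, or 8.83%, of those of Gnas, and 18.6% of the 50-base words of Gnas transcripts also occur in Nespas or Gm20721. The adenylyl cyclase genes Adcy3 and Adcy6 were at 0.19 (SE 0.135) and -0.09 (SE 0.169), with edgeR adjusted p = 0.461 and 0.821.

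The spread between replicates differed widely among the 10 genes. The second library of a genotype was below the first for Peg3, Igf2r, Grb10 and Impact in both genotypes, and above it for Snrpn and Gnas in both. The remaining 4 went opposite ways. For Igf2r the log2 ratio of replicate 2 to replicate 1 was -0.47 in WT and -0.39 in the knockout, and for Peg3 it was -0.33 and -0.34, both of which exceed the difference between their genotypes. Over long genes as a class the median shift had the same sign and was smaller. Over the 2064 tested genes longer than 8000 bp the median ratio was -0.14 in WT and -0.19 in the knockout, and over the 415 genes of at most 1000 bp it was 0.16 and 0.17. Gnas, at 11306 bp, did not have this shift, with 0.043 and 0.044. As a description over the 10 genes, which share libraries, log2 length and the ratio correlated at r = -0.49 in WT and r = -0.54 in the knockout. The cause was not tested.

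**Figure D3:**
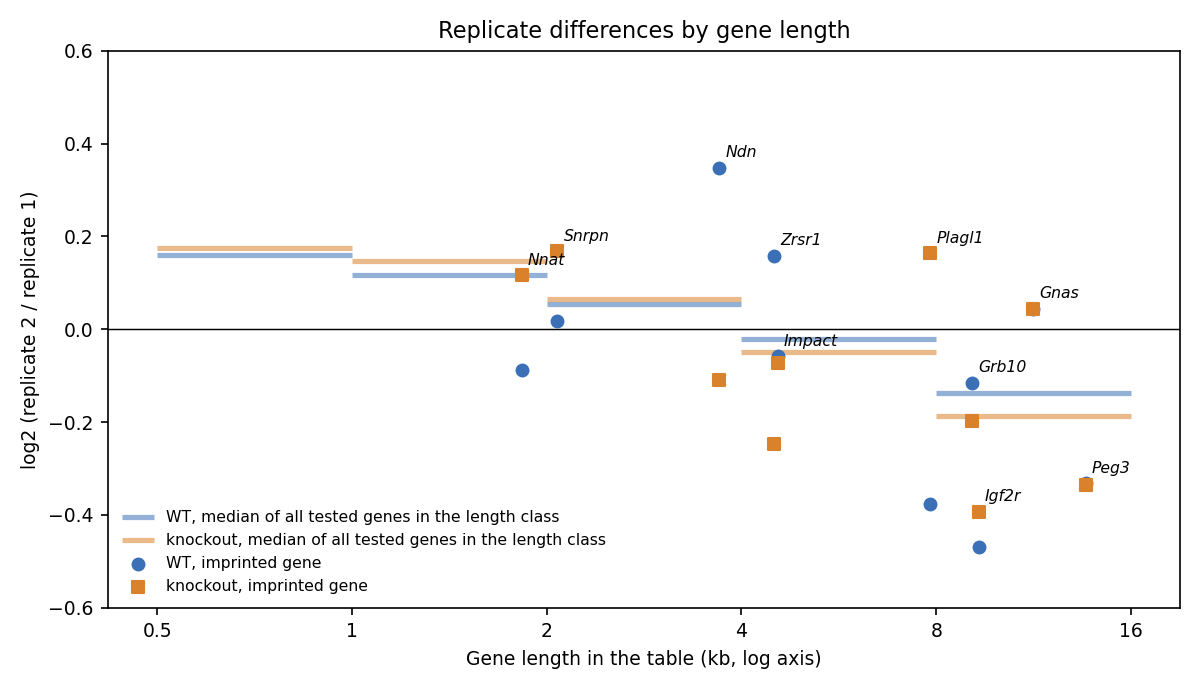
Log2 ratio of replicate 2 to replicate 1 (y axis) against gene length in the table (x axis, log scale) for the 10 imprinted genes in WT (circles) and in the knockout (squares), with the median of all tested genes in 5 length classes as horizontal lines, of which the longest is open above 8000 bp and drawn to 16 kb. Igf2r and Peg3 lie low in both genotypes, and the medians fall from 0.16 and 0.17 in the shortest class to -0.14 and -0.19 in the longest.

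The genes around the 10 were then counted. Of 22 genes that share a domain, a host gene or an antisense transcript with them, 21 were in the table and 16 were tested. Of these, 2 passed an adjusted p-value under 0.05 (12.5%, against 9.21% of all genes), Peg12 being higher and Atp10a lower. Their median log2 fold change was -0.10. The 3 nearest tested genes on either side make 57 genes, among them Snrpn and Ndn, which neighbour each other, and Snurf. Of the 57, 5 passed (8.77%), with Peg12 and Src being higher and Osbpl1a, Psma8 and Utrn lower. Utrn, the utrophin gene near Plagl1, was at -0.46 (SE 0.118, adjusted p = 0.0224 by edgeR). The call for Utrn was lost without WT replicate 1 (-0.37, edgeR adjusted p = 0.122) and without knockout replicate 2 (-0.27, edgeR adjusted p = 0.113). Beside 6 of the 10 genes, Peg3, Snrpn, Igf2r, Grb10, Gnas and Zrsr1, 0 of the 6 nearest genes passed.

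**Figure D4:**
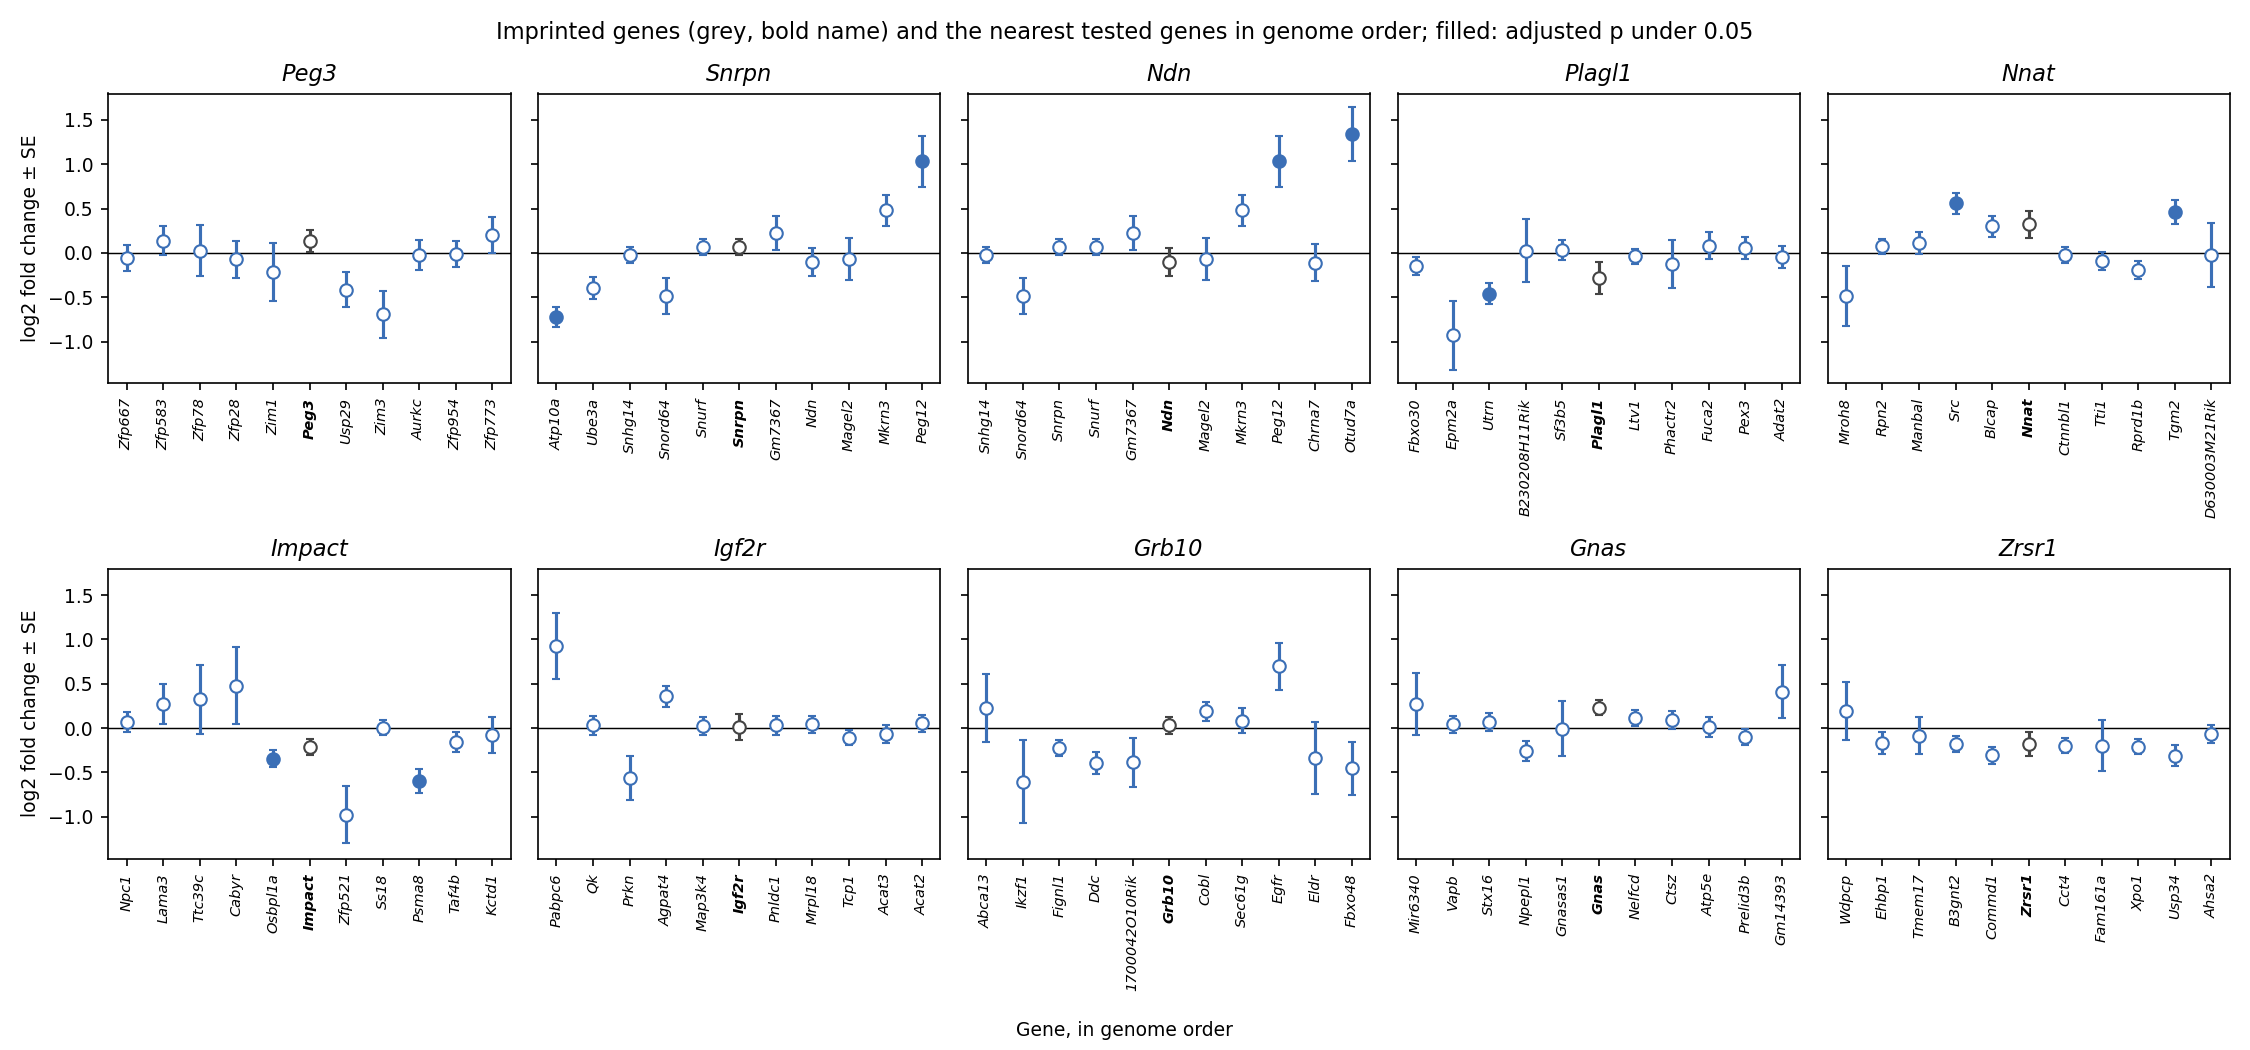
Log2 fold change with its SE (y axis) for each imprinted gene (grey, bold name) and the 5 nearest tested genes on either side, in genome order along the x axis, 1 panel for each gene. Filled points have an edgeR adjusted p-value under 0.05. No imprinted gene in grey is filled, and the filled neighbours include Atp10a at -0.72, Otud7a at 1.35, Peg12 at 1.03 and Src at 0.56.

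A further list held 20 imprinted genes of other domains, of which 15 were tested. Of these, 2 passed (13.3%), both lower, where 5.21% of all genes were lower. Tbc1d12 (chromosome 19) fell from 62 and 68 counts to 36 and 38, a log2 fold change of -0.91 (SE 0.213, adjusted p = 0.0131 by edgeR), which DESeq2 did not call (adjusted p = 0.134). Gab1, an adapter of receptor tyrosine kinases, was at -0.34 (SE 0.0818, adjusted p = 0.0147 by edgeR). Its call was lost without WT replicate 1 (-0.29, edgeR adjusted p = 0.278) and without WT replicate 2 (-0.39, edgeR adjusted p = 0.0740). Gab1 lies on chromosome 8, where the median log2 fold change of 753 tested genes was -0.51, so it was less low than the median gene there. The median of the 15 genes was -0.18, and Rasgrf1, Htr2a, Dcn and Kcnk9 had at most 3 counts in any library.

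Of 25 genes that act with the 10 or are their paralogs, all were tested and 4 passed (16%, against 9.21% of all genes). The 3 that were lower, E2f4 (-0.49, SE 0.0868), Siah1a (-0.54, SE 0.123) and Insr (-0.67, SE 0.146), all lie on chromosome 8, with its median of -0.51. Their edgeR adjusted p-values were 2.00e-03, 0.0112 and 8.96e-03. E2f4 codes for a repressor of cell cycle genes, Siah1a for a ubiquitin ligase that binds PEG3, and Insr for the insulin receptor to which GRB10 binds. Without WT replicate 1 the value of Siah1a was -0.51 and that of Insr -0.50, with edgeR adjusted p = 0.0637 and 0.0639. E2f1, a cell cycle activator that necdin binds, was higher at 0.39 (SE 0.110, adjusted p = 0.0357 by edgeR), which was lost in 3 of the 4 fits that left out a library. These were the fits without WT replicate 1 (0.32, edgeR adjusted p = 0.348), without WT replicate 2 (0.48, edgeR adjusted p = 0.0623) and without knockout replicate 2 (0.30, edgeR adjusted p = 0.137).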

How the data were processed

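RNA-seq libraries of mouse ESCs (2 WT, 2 Snf2l knockout) were analysed from the 1 table the authors deposited, which holds raw read counts per Entrez gene and the gene length in bp. The authors aligned reads to mm10 with QuasR and HISAT2 and counted them over UCSC Known Genes. The labels name a stranded kit and the methods another kit, and the strand setting of the counting is not given in the sources used here. The submitters' processing notes also name bcl2fastq 2.17.

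Tests used edgeR 4.0.16 under R 4.3.3, with filterByExpr (minimum count 10), TMM scaling, and glmQLFit and glmQLFTest in their legacy form, two-sided, with genotype as the only term and Benjamini-Hochberg adjustment over 13840 genes. SE came from the fold change and the F statistic, and 95% intervals from the moderated degrees of freedom. The procedure was tested on simulated data. Symbols were matched for 24570 of 24594 genes (99.9%) by Entrez identifier to RefSeq of GRCm38. Exon overlaps and 50-base words came from GENCODE M21 of the same assembly. Replicates differed by more than sampling noise (chi-square per degree of freedom 5.17 in WT, 7.35 in the knockout).

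The named genes are the 10 genes, their domain partners, and genes of the other lists with an adjusted p-value under 0.05. The paralogs Snrpb and Zrsr2 were named whatever their p-value, and other binding partners and neighbours named without a call were chosen after their values were seen. So was Otud7a, which is not among the 3 nearest tested genes on its side of Ndn. The genes and lists were chosen with earlier results of these data known. Of the symbols listed, Zfp264 was not matched and 1 domain partner is not reported here. Alternatives were other scalings (RLE, upper-quartile, library size), other filters, DESeq2 1.42.0, the replicate number as a block, other edgeR settings, chromosomes 8 and Y left out, other thresholds and each library left out.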

Additional observations from a re-analysis of the deposited data

How the results depend on the processing

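Of 140 alternative values for the log2 fold changes of the 10 genes, 129 kept their direction and their side of the threshold, 9 changed direction without a call, and 2 passed the threshold. Both that passed were under the replicate number as a block, where Impact was at -0.21 (edgeR adjusted p = 0.0052) and Gnas at 0.23 (edgeR adjusted p = 1.28e-03). With this block, 2 of the 10 genes, 9 of 16 domain partners and 6 of 15 other imprinted genes were called. So were 7 of 25 function partners and 21 of 57 neighbours. Over all genes tested, 3471 of 13840 were called, against 1274 without the block. Deviations of same-numbered libraries correlated at 0.196 over the tested genes, which with 2 pairs is no proof of pairing.

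Direction changed for Igf2r with chromosomes 8 and Y left out (-0.00076). With each library left out in turn, Peg3 ranged from -0.041 to 0.31, Igf2r from -0.21 to 0.27, Grb10 from -0.070 to 0.13, Ndn from -0.26 to 0.089 and Snrpn from -0.019 to 0.15. The reversed values were -0.024 (Peg3), 0.089 (Ndn), -0.21 (Igf2r) and -0.027 (Grb10) without WT replicate 2, -0.041 (Peg3), -0.20 (Igf2r) and -0.070 (Grb10) without knockout replicate 1, and -0.019 (Snrpn) without knockout replicate 2.

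The count of 0 of 10 held under every alternative except the block. Counts near the threshold moved, also over all genes, where 579 of 13073 were called without chromosomes 8 and Y. Domain partners called (2) fell to 1 with a filter of at least 1 count, with DESeq2, without chromosomes 8 and Y and at an adjusted p-value under 0.01. Other imprinted genes called (2) fell to 1 with DESeq2 and without chromosomes 8 and Y, and to 0 at 0.01. Function partners called (4) fell to 0 without chromosomes 8 and Y, of which 3 were left out by construction, and to 2 at 0.01. Neighbours called (5) fell to 2 with a filter of at least 1 count, to 3 with DESeq2 and to 1 at 0.01, and were 8 with 5 genes on either side. With each library left out in turn, these counts ranged from 2 to 5 for domain partners, from 1 to 3 for other imprinted genes, from 2 to 4 for function partners and from 2 to 10 for neighbours. The 5 and 10 were without knockout replicate 1, and the lowest counts of the last 3 lists without WT replicate 1. The ratio of the highest to the lowest level was 55.6 in WT and 69.4 in the knockout without the length correction. Depth limits Airn, Slc22a2 and Slc22a3, at 0 or 1 counts. Beyond the cases stated, the cause was not tested.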
